A study of Arabidopsis thaliana with 9 samples.

Results

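The genes described are 10 loci of Arabidopsis thaliana that encode the decapping machinery and the XRN exonucleases: XRN2, XRN3, XRN4, DCP1, DCP2, VCS, DCP5, PAT1, FRY1 and DXO1. They were chosen by locus, as 10 of the 34212 genes in the deposited table, and they hold 43 of its 82190 transcript isoforms. Polyadenylated RNA of whole seedlings, 14 days old, was sequenced from wild type (Col-0), from smd1b (allele smd1b-3) and from prp39a (allele prp39a-3, line SAIL_1249A03), with 3 libraries each. The labels call the 3 libraries of a genotype independent biological replicates. Each mutant is represented by 1 allele, so an effect of the gene and one of the line cannot be told apart. SmD1b is an Sm protein, part of the core of snRNPs, and PRP39a belongs to the U1 snRNP, which recognises 5′ splice sites. The values are TPM, a relative abundance scaled for transcript length and for the library total. The depth behind them is unknown.

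Most mRNA decay in the cytoplasm of plant cells begins with loss of the poly(A) tail, after which the 5′ cap is removed and the body is degraded from the 5′ end. DCP2 cuts the cap, DCP1 activates it, VCS is the scaffold on which they meet, and DCP5 and PAT1 are further activators that gather in processing bodies. XRN4 then degrades decapped RNA in the cytoplasm, while XRN2 and XRN3 act in the nucleus. FRY1 (listed as SAL1 in the annotation) removes the nucleotide PAP, which inhibits XRN enzymes, and DXO1 removes NAD caps. Loss of XRN or decapping activity is known to enhance post-transcriptional silencing of transgenes, the process named in the study's title, because uncapped RNA is also a template for small RNA production. The comparisons below give the levels and isoform mix of these genes in each splicing mutant.

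The isoform results turn mainly on PAT1 and VCS, so the introns of both genes that are annotated as optional are shown, each by the 25 bases around its 5′ splice site, the contact point of the U1 snRNP. They were read from the TAIR10.1 assembly with RefSeq annotation; the last 10 exon bases and the first 15 intron bases are printed, with the first 6 bases of the intron in capitals. All 4 introns are spliced out in some annotated transcripts and retained in others.
PAT1 intron in the 5′ UTR, 78 bases, chr1:29753068-29753092, minus strand: tcatattaagGTAGCGtatccgctt
PAT1 intron in the 3′ UTR, 90 bases, chr1:29749442-29749466, minus strand: gggaagaaagGTAGAGagaatcgat
VCS intron in the coding region, 105 bases, chr3:4304091-4304115, plus strand: tcttctcctgGTAATActaaccctc
VCS intron in the coding region, 388 bases, chr3:4309031-4309055, plus strand: tcttgaaaagGTTTGCacatctctg
Each starts with GT, as do 98.7% of 133433 annotated introns, and each departs from the sequence complementary to U1, CAGGTAAGT, at several places. Over these 9 bases (3 in the exon, 6 in the intron) the VCS intron of 105 bases matched at 6, which is the median of all introns, and the other 3 matched at 5. Introns with 5 or fewer matches made up 33.6% of all. The first 6 bases of the PAT1 introns, GTAGCG and GTAGAG, begin 0.034% and 0.181% of introns. Those of the VCS introns, GTAATA and GTTTGC, begin 1.79% and 0.426%. The fully complementary GTAAGT begins 9.1%. The 3 annotated PAT1 transcripts share 1 coding structure and differ in their UTRs, whereas the 3 of VCS have 3 coding structures. The deposited isoforms are named P1, P2 and so on, with no structure, and could not be tied to these transcripts or introns, so the sequences describe the genes and not an isoform.

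The mutated genes went with the labels. SMD1B was listed at 0, 0.138 and 0 TPM in the smd1b libraries, against 50.3 to 53.6 TPM in wild type, and PRP39A stood at 5.44 to 5.58 TPM in prp39a, against 48.5 to 55.1 TPM. Of the tissue markers, 6 leaf genes summed to between 17420 and 23794 TPM, 8 root genes to between 123 and 396 TPM and 5 flower genes to between 4.30 and 7.73 TPM. None was listed at 0 in all libraries. Only 1 of the flower genes, SEP3, averaged 1 TPM or more (5.08 TPM), and it made up most of the flower sum. The root sum was 188 to 361 TPM in wild type, 129 to 247 in smd1b and 123 to 396 in prp39a, ranges that overlap. All 8 root genes had fitted changes below 0 in smd1b and 7 of the 8 in prp39a. Of all genes, 53.5% lay above 0 in smd1b and 35.3% in prp39a. Within wild type all 8 were highest in replicate 2, so they are not 8 separate signs. No root marker passed limma's test in any comparison. Of the 6 leaf markers, 2 were called higher in prp39a than in smd1b, where 6.39% of all genes were. In that comparison 4 of the 6 had fitted changes above 0 and 2 below. In whole seedlings, fewer cells of a type and less RNA per cell cannot be told apart, and the part of tissue make-up in the results below was not tested.

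All 10 genes were expressed and passed the filter of a mean of 1 TPM. In wild type DCP5 had the highest level, 118 ± 10.6 TPM (SD, n = 3), followed by FRY1 with 47.3 ± 1.09 TPM. VCS (38.9 ± 2.97 TPM) and XRN3 (38.8 ± 1.86 TPM) came next and overlapped each other, and neither overlapped FRY1 above. XRN4 (31.1 ± 3.16 TPM), PAT1 (27.2 ± 1.59), XRN2 (26.7 ± 1.58), DCP2 (25.4 ± 0.936), DCP1 (23.4 ± 1.33) and DXO1 (23.1 ± 0.454 TPM) formed a run in which each gene overlapped its neighbour. DCP2, which cuts the cap, and DCP1 overlapped each other, and DCP5 stood above all other members. Together the 10 genes made up 376 to 423 TPM in wild type, 403 to 419 in smd1b and 353 to 397 in prp39a.

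The gene totals stayed close to wild type in both mutants. None of the 10 passed limma's test in smd1b (adjusted over all 20585 genes tested), where 6.63% of all genes did (3.57% higher, 3.06% lower), and none passed in prp39a, where 4.13% did (1.73% higher, 2.39% lower). At an unadjusted p under 0.05 there were 0 in smd1b and 4 in prp39a (XRN2, FRY1 and PAT1 lower, DCP2 higher), against 23.4% and 23.7% of all genes. The fitted log2 fold changes, on the log2(TPM + 0.5) scale, ran from −0.15 to 0.15 in smd1b and from −0.27 to 0.17 in prp39a. Their 95% intervals reached from −0.346 to 0.304 in smd1b and from −0.455 to 0.318 in prp39a. Each interval is for 1 gene and does not cover the 10 jointly. The median of the 10 was 0.044 in smd1b and −0.10 in prp39a, against 0.017 and −0.071 over all genes. Of all genes called in prp39a against wild type, 357 were higher and 493 lower; with size factors, which centre the typical gene at no change, they were 614 and 381, and 4 of the 10 members lay above 0 against 3 without. Both comparisons share the wild-type libraries.

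**Figure D1:**
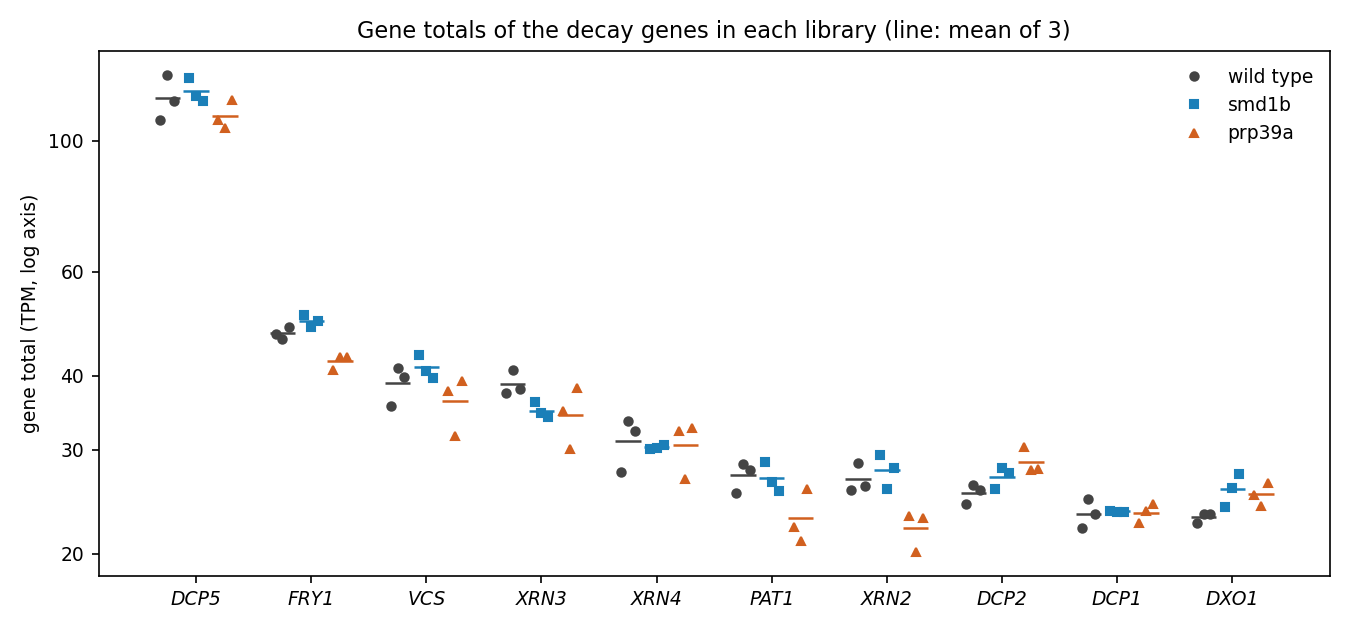
Gene totals in TPM on a log axis for the 10 genes, ordered by wild-type level; each point is 1 library and each line the mean of 3. DCP5 stands at 105 to 129 TPM in all 9 libraries, and the points of the 3 genotypes lie close together for DCP1 and XRN4, while those of prp39a lie below the others for FRY1 and XRN2.

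Among the exonucleases, XRN2 (AT5G42540, chr5:17007366-17014846 on TAIR10.1, as for the other positions), which trims ribosomal RNA precursors, was the gene with the lowest fold change in prp39a. It stood at 25.6, 28.5 and 26.0 TPM in wild type, at 29.4, 25.7 and 27.9 in smd1b and at 23.1, 20.1 and 23.0 TPM in prp39a. All 3 prp39a libraries were below the 6 others, and the smd1b libraries overlapped wild type. Against wild type the log2 fold change in prp39a was −0.27 ± 0.082 SE (95% interval −0.45 to −0.09), which did not pass (limma adjusted p = 0.0962). Directly against smd1b, XRN2 was lower in prp39a (−0.32 ± 0.082 SE, adjusted p = 0.0255). That call was lost without smd1b replicate 1 (0.0833) or 3 (0.0777) and without prp39a replicate 1 (0.0505) or 2 (0.0715), in a fit of the 6 libraries alone (0.0504) and with a replicate block (0.0520).

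XRN3 (AT1G75660, chr1:28408134-28415118), the nuclear enzyme that removes readthrough and aberrant transcripts and is essential in Arabidopsis, had 37.4, 40.9 and 38.1 TPM in wild type. It had 36.2, 34.6 and 34.0 in smd1b and 34.9, 30.03 and 38.2 TPM in prp39a. The smd1b libraries were below all wild-type ones and the prp39a libraries overlapped them, but neither difference passed (log2 fold changes −0.15 ± 0.088 and −0.18 ± 0.088 SE, limma adjusted p = 0.356 and 0.260). XRN4 (AT1G54490, chr1:20350109-20356916), the cytoplasmic enzyme also known as EIN5 for its role in ethylene response, had 27.5, 33.5 and 32.2 TPM in wild type, 30.1, 30.3 and 30.6 in smd1b and 32.3, 26.7 and 32.6 TPM in prp39a. The 3 groups overlapped, and the 95% intervals of the log2 fold change were −0.25 to 0.19 in smd1b and −0.25 to 0.19 in prp39a.

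The decapping subunits moved little. DCP1 (AT1G08370, chr1:2638037-2640663) had 22.1, 24.7 and 23.3 TPM in wild type, 23.6, 23.6 and 23.6 in smd1b and 22.5, 23.6 and 24.3 TPM in prp39a. Its intervals were among the narrowest, −0.13 to 0.16 and −0.14 to 0.15 on the log2 scale. All groups overlapped. The catalytic subunit DCP2 (AT5G13570, chr5:4367262-4370429) had 24.3, 26.1 and 25.6 TPM in wild type, 25.7, 27.9 and 27.4 in smd1b and 30.3, 27.7 and 27.8 TPM in prp39a. The prp39a libraries were above all wild-type ones, a log2 fold change of 0.17 ± 0.065 SE that did not pass (limma adjusted p = 0.159). The scaffold VCS (AT3G13300, chr3:4303822-4310275) stood at 35.6, 41.3 and 39.8 TPM in wild type, 43.5, 40.8 and 39.7 in smd1b and 37.8, 31.7 and 39.3 TPM in prp39a, with both mutants overlapping wild type. The prp39a libraries were below all smd1b ones, a log2 fold change of −0.19 ± 0.093 SE that did not pass (limma adjusted p = 0.168). DCP5 (AT1G26110, chr1:9024341-9027955), which also represses translation, had 109, 129 and 117 TPM in wild type, 128, 119 and 117 in smd1b and 108, 105 and 117 TPM in prp39a, with all groups overlapping.

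PAT1 (AT1G79090, chr1:29749101-29753330), which links the LSM1-7 ring on the 3′ end of an mRNA to decapping, had totals of 25.4, 28.4 and 27.8 TPM in wild type against 28.5, 26.5 and 25.6 for smd1b. In prp39a they were 22.2, 21.0 and 25.7 TPM, with 1 library inside the wild-type range. The log2 fold change in prp39a was −0.24 ± 0.088 SE (limma adjusted p = 0.144), and against smd1b it was −0.23 ± 0.088 SE (0.0970), a difference that passed without prp39a replicate 3 (0.0315).

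FRY1 (AT5G63980, chr5:25610002-25611802) is the phosphatase that keeps the XRN inhibitor PAP low. It had 47.2, 46.2 and 48.4 TPM in wild type, 50.7, 48.5 and 49.5 in smd1b and 40.9, 43.0 and 43.0 TPM in prp39a, so that the 3 ranges did not overlap. Neither mutant passed against wild type (log2 fold changes 0.067 ± 0.054 SE in smd1b and −0.16 ± 0.054 SE in prp39a, limma adjusted p = 0.498 and 0.126). Between the mutants FRY1 was lower in prp39a (−0.23 ± 0.054 SE, adjusted p = 0.0204). With size factors this difference was −0.14 with an adjusted p of 0.132, and the call was also lost without smd1b replicate 1 (0.0653) or 3 (0.0621) or prp39a replicate 1 (0.0740). DXO1 (AT4G17620, chr4:9821874-9825039) had 22.6, 23.4 and 23.3 TPM in wild type, 24.0, 25.9 and 27.3 in smd1b and 25.2, 24.1 and 26.4 TPM in prp39a. All 6 mutant libraries were above wild type, and neither difference passed (log2 fold changes 0.15 ± 0.068 and 0.12 ± 0.068 SE, limma adjusted p = 0.217 and 0.295).

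The direct comparison of the mutants thus called 2 of the 10 genes, XRN2 and FRY1, both lower in prp39a, and 3 had an unadjusted p under 0.05, as did 36.7% of all genes. The share called is near the background of 21.1% of all genes called in this comparison (6.39% higher, 14.7% lower), and the median of all genes was itself −0.081 there. Of the genes called, 1316 were higher and 3020 lower in prp39a; with size factors, which bring the median to 0.0059, they were 2194 and 2027. With size factors 5 of the 10 members lay above 0, against 2 without.

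**Figure D2:**
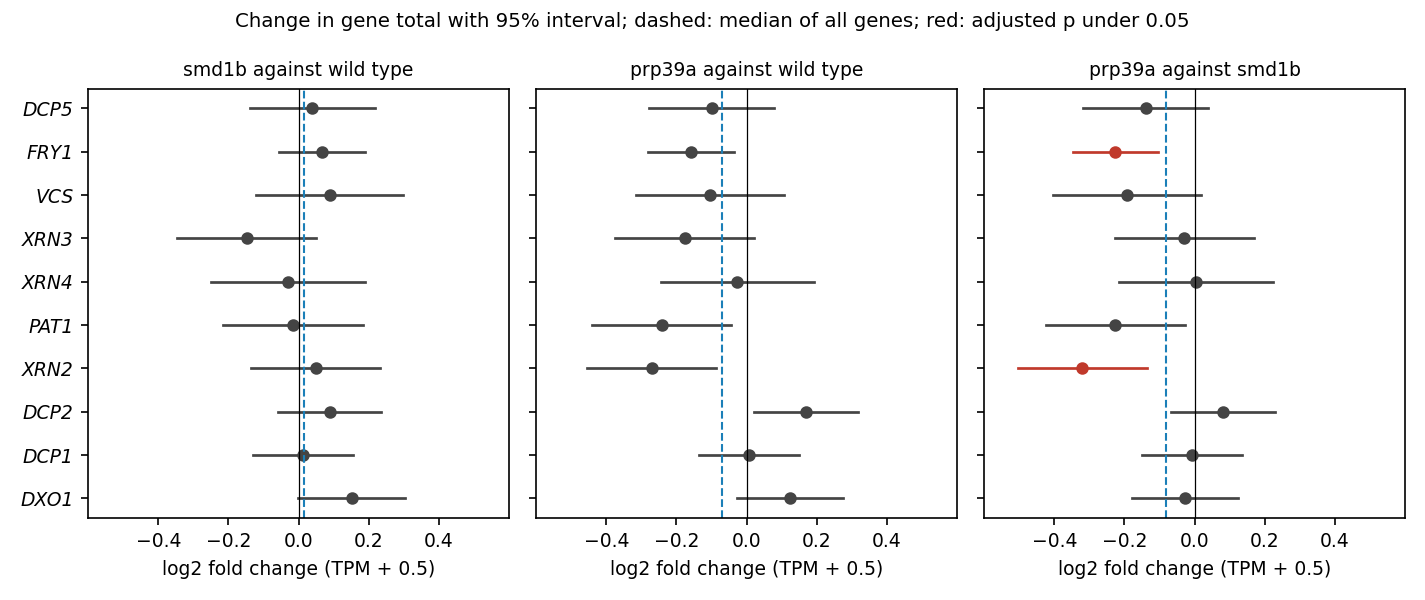
Log2 fold change of each gene total, log2(TPM + 0.5) scale, with its 95% interval, in the 3 comparisons; the dashed line is the median of all genes tested and red marks an adjusted p under 0.05. The intervals reach from −0.504 to 0.318, and red appears only for XRN2 and FRY1 in prp39a against smd1b.

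Isoforms of PAT1, VCS, XRN3 and DXO1 passed the test of isoform mix. Only the calls for PAT1 P1 and P3 and for VCS P1, all in prp39a, held in all 16 alternatives described below. Each isoform was tested as the log2 ratio of its TPM to that of the other isoforms of its gene, each with 0.5 added, and a fall of 1 isoform raises the ratio of others. Of the 43 isoforms, 11 isoforms of 5 genes (PAT1, VCS, XRN3, XRN4 and DXO1) had mean shares between 0.05 and 0.95 and were tested. Of the 11, 5 had a wild-type mean share outside these limits (both isoforms of XRN3 and of DXO1, and XRN4 c1) and were testable only through the mutants, so a call for one of them is no independent support. The other 5 genes each gave over 95% of their TPM from 1 isoform on average (98.9% from XRN2 P1, 98.8% from DCP1 P1, 97.3% from DCP2 P1, 97.1% from DCP5 P1 and 99.8% from FRY1 isoform 1), and 6 of the 43 isoforms were listed at 0 in all libraries. In prp39a 7 of the 11 isoforms changed share, from 4 genes (PAT1, VCS, XRN3 and DXO1); 3 were higher and 4 lower, and 4 of the 7, all of PAT1 and VCS, lay inside the limits in wild type. Over all isoforms 10.6% changed (5.49% higher, 5.12% lower), and 16.6% of genes had a changed isoform. In smd1b 4 of the 11 changed, from 3 genes (PAT1, XRN3 and DXO1), 2 higher and 2 lower, of which 1, PAT1 P2, lay inside the limits in wild type, against 2.17% of all isoforms (1.08% higher, 1.09% lower) and 4.03% of genes. Between the mutants 3 of the 11 differed, all of PAT1, with 1 higher and 2 lower in prp39a, against 13.5% of all isoforms (6.91% higher, 6.63% lower) and 21.3% of genes. These are small numbers, and isoforms of 1 gene mirror each other.

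Among the 11 isoforms the largest change in prp39a was that of PAT1 P1. This isoform P1 made up 34.5%, 38.5% and 32.9% of the gene's TPM in wild type, 18.6%, 23.7% and 22.5% in smd1b and 4.62%, 6.12% and 8.89% in prp39a. The 3 genotypes did not overlap, with wild type highest and prp39a lowest. In TPM, P1 fell from 9.60 ± 1.17 in wild type to 1.53 ± 0.666 in prp39a, 16.0% of wild type, and stood at 5.79 ± 0.494 in smd1b. The log-ratio of P1 changed by −2.63 ± 0.24 SE in prp39a (limma adjusted p = 0.00031) and by −0.94 ± 0.24 SE in smd1b, which did not pass (0.0811). P1 was also lower in prp39a than in smd1b (−1.70 ± 0.24 SE, adjusted p = 0.00266).

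The isoform with the higher share in prp39a was P3, with 53.2%, 52.7% and 54.2% in wild type, 44.7%, 50.2% and 54.4% in smd1b and 82.9%, 79.3% and 77.6% in prp39a. The prp39a libraries stood above the 6 others, which overlapped. The log-ratio of P3 rose by 1.70 ± 0.21 SE in prp39a (limma adjusted p = 0.00133) and differed between the mutants by 1.90 ± 0.21 SE (0.000792), while in smd1b its change was −0.20 ± 0.21 SE (0.666). In TPM, P3 was 14.5 ± 0.878 in wild type and 18.3 ± 1.66 in prp39a. The calls for P1 and P3 in prp39a, against wild type and against smd1b, held in all 16 alternatives run.

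In smd1b the isoform with the higher share was P2. It made up 12.4%, 8.81% and 12.9% in wild type, 36.7%, 26.1% and 23.1% in smd1b and 12.5%, 14.6% and 13.5% in prp39a. Every smd1b library was above the 6 others, with replicate 1 the highest, and prp39a overlapped wild type. The log-ratio of P2 rose by 1.51 ± 0.27 SE in smd1b (limma adjusted p = 0.0279), changed by 0.29 ± 0.27 SE in prp39a (0.589), and was lower in prp39a than in smd1b by −1.22 ± 0.27 SE (0.0189). The call in smd1b was lost when any 1 of 6 libraries was left out (wild-type replicates 1, 2 and 3, smd1b replicates 1 and 2, prp39a replicate 3; adjusted p from 0.0519 to 0.0946), in the fit of 6 libraries (0.0773) and with the block (0.0693). The call between the mutants was lost without prp39a replicate 1 (0.0615) or 3 (0.0528).

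**Figure D3:**
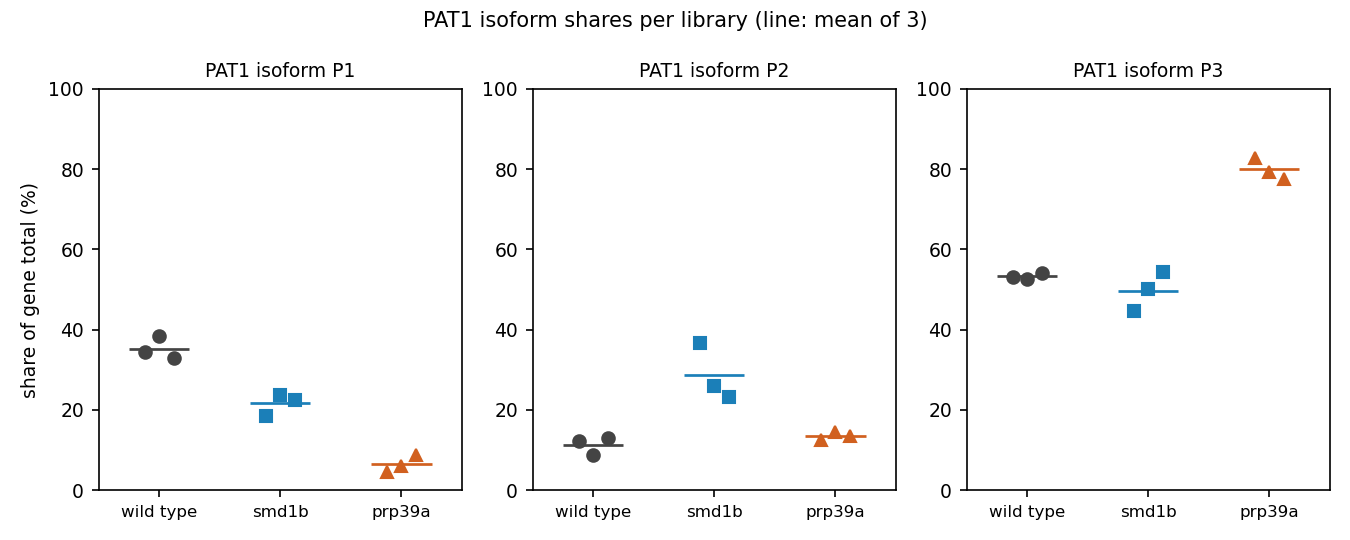
Shares of the 3 PAT1 isoforms in percent of the gene's TPM; each point is 1 library and each line the mean of 3. P1 steps down from 32.9% to 38.5% in wild type to 18.6% to 23.7% in smd1b and 4.62% to 8.89% in prp39a, P2 is highest in smd1b and P3 in prp39a.

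In VCS, the decapping scaffold, the share of isoform P1 rose and that of isoform P2 fell in prp39a. P2 made up 33.0%, 32.1% and 31.3% in wild type, 18.9%, 16.4% and 22.8% in smd1b and 14.9%, 23.1% and 14.6% in prp39a. P1 made up 57.2%, 62.1% and 60.7% in wild type, 71.4%, 74.1% and 72.4% in smd1b and 78.4%, 73.4% and 80.2% in prp39a. For both isoforms all 6 mutant libraries lay outside the wild-type range, and the mutants overlapped each other. In prp39a the log-ratio of P1 rose by 1.15 ± 0.20 SE (limma adjusted p = 0.00668) and held in all 16 alternatives, and that of P2 fell by 1.13 ± 0.26 SE (0.0247). The call for P2 was lost without wild-type replicate 1 (0.0748), 2 (0.0729) or 3 (0.0631), without prp39a replicate 1 (0.0868) or 3 (0.0818), and with the block (0.0587). In smd1b the changes were 0.80 ± 0.20 SE for P1 and −0.95 ± 0.26 SE for P2, and neither passed (adjusted p = 0.0733 and 0.0925). The difference between the mutants was 0.35 for P1 (95% interval −0.10 to 0.79) and −0.17 for P2 (−0.76 to 0.41).

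XRN3 had more of a minor isoform in both mutants, in calls that most alternatives ended in smd1b. Its c1 and P1 averaged 1.82% and 98.2% in wild type, outside the limits for testing, and entered the test only through the mutants. The isoform c1 was listed at effectively 0 in wild-type replicate 1 (5.06e-09%) and made up 0.781% and 4.69% in the other wild-type libraries. It made up 9.04%, 10.7% and 15.9% in smd1b and 12.3%, 9.45% and 6.49% in prp39a, above wild type in all 6. In TPM it stood at 0.701 ± 0.951 in wild type, 4.14 ± 1.13 in smd1b and 3.20 ± 0.952 in prp39a, while P1, nearly all the rest, stood at 38.1 ± 2.23, 30.8 ± 2.14 and 31.2 ± 4.30 TPM. The log-ratio of c1 rose by 2.52 ± 0.53 SE in smd1b and 2.18 ± 0.53 SE in prp39a (limma adjusted p = 0.0457 and 0.0296), and that of P1 fell by 2.52 ± 0.51 SE and 2.18 ± 0.51 SE (0.0433 and 0.0273). Both calls in smd1b were lost without any 1 library except wild-type replicate 3 (0.0600 to 0.139), and both in prp39a when wild-type replicate 1 or 2, or replicate 1 or 2 of prp39a, was left out (0.0742 to 0.0983). With a pseudocount of 0.1 (0.0679 to 0.108) and in fits of 6 libraries (0.0540 to 0.0931) the 4 calls were lost, and those in smd1b also with no filter (0.0517 and 0.0529) and with the block (0.0788 and 0.0842).

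DXO1, the enzyme that removes NAD caps, gave most of its TPM from isoform P1, with 94.4%, 96.8% and 94.8% in wild type, 88.8%, 89.2% and 86.8% in smd1b and 92.2%, 89.2% and 91.6% in prp39a. All mutant libraries were below wild type. With wild-type means of 95.3% for P1 and 4.39% for ID1, both entered the test only through the mutants. The log-ratio of P1 fell by 1.13 ± 0.21 SE in smd1b and 0.77 ± 0.21 SE in prp39a (limma adjusted p = 0.0296 and 0.0475). Its TPM, which was not tested, was 22.0 ± 0.669 in wild type, 22.7 ± 1.25 in smd1b and 23.0 ± 1.35 in prp39a. The isoform ID1 made up 4.79%, 3.19% and 5.19% in wild type, 9.63%, 8.47% and 11.3% in smd1b and 7.53%, 10.3% and 7.92% in prp39a, which did not pass the test (limma adjusted p = 0.0708 and 0.0665). The P1 call in prp39a was lost in 15 of 16 alternatives (up to 0.147), without any 1 library among them, and held with size factors. That in smd1b was lost without any 1 of 7 libraries (all but prp39a replicates 1 and 2; 0.0529 to 0.0922), in the fit of 6 libraries (0.0679) and with the block (0.0826).

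XRN4 did not pass in any isoform comparison. Its main isoform P1 made up 90.7%, 92.2% and 94.96% in wild type, 76.1%, 89.2% and 82.1% in smd1b and 91.6%, 92.9% and 91.0% in prp39a. The smd1b libraries were below the 6 others but spread over a wide range (log-ratio −1.23 ± 0.32 SE, limma adjusted p = 0.0850). The difference between the mutants, 1.06 ± 0.32 SE (0.0591), passed without smd1b replicate 2 (0.0201) and with a pseudocount of 1 (0.0475). The isoform c2, too low to test, made up 12.3%, 2.88% and 7.54% in smd1b, against 0.873% to 2.89% in wild type.

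**Figure D4:**
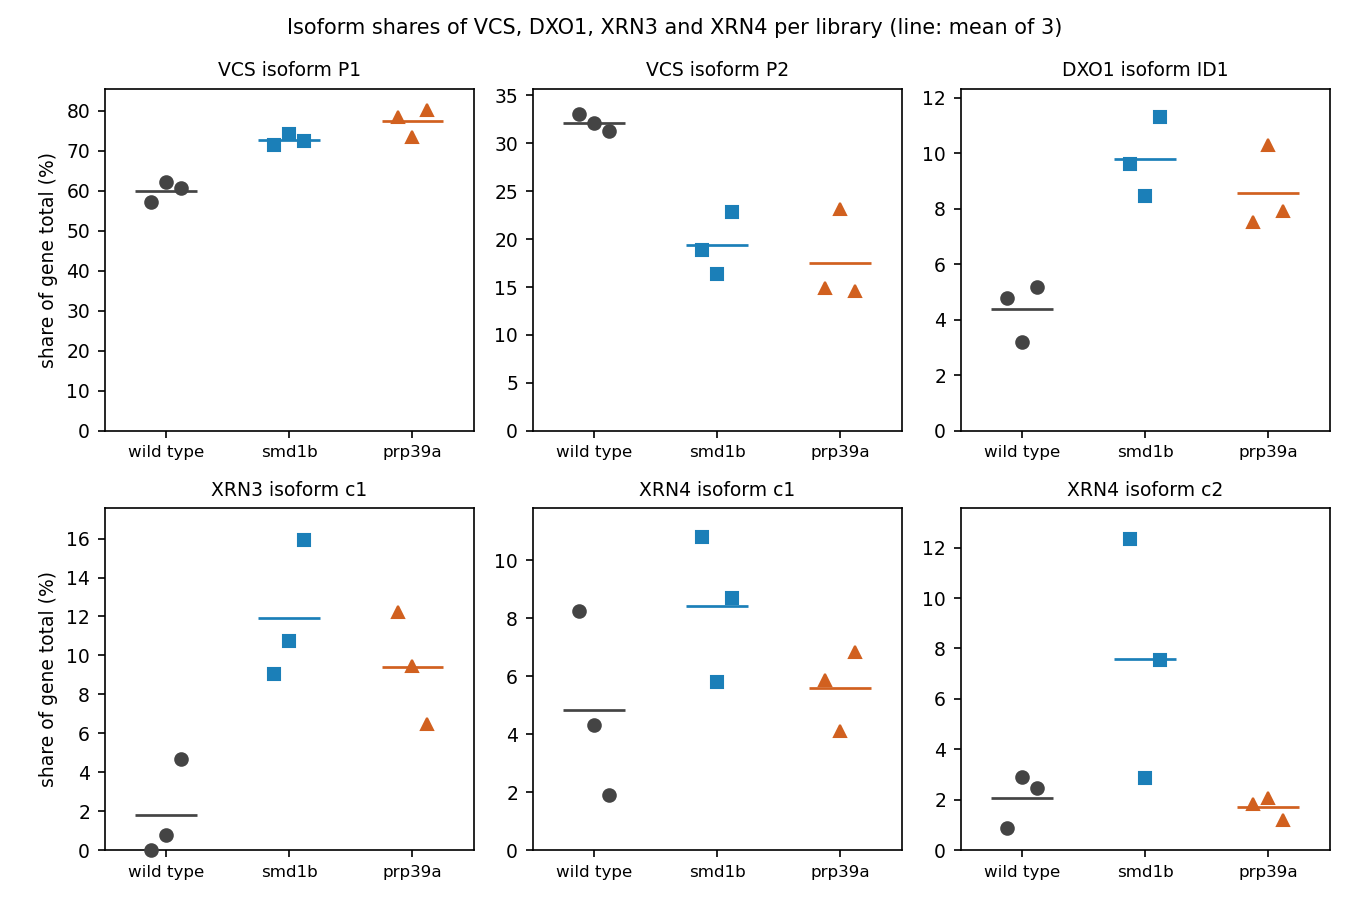
Isoform shares in percent of the gene's TPM for VCS, DXO1, XRN3 and XRN4; each point is 1 library and each line the mean of 3, and the axes differ between panels. For VCS P1 and P2, DXO1 ID1 and XRN3 c1 all 6 mutant libraries lie outside the wild-type range, while XRN4 c1 overlaps in all groups. DXO1 ID1 and XRN3 c1 were under the limit for testing in wild type and entered only through the mutants, so their separation is no independent support.

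Of the other genes with a single main isoform, DCP5 had a minor one, ID5, with values that separated by genotype. It stood at 3.18, 3.33 and 2.78 TPM in wild type, 2.67, 2.24 and 2.33 in smd1b and 1.62, 1.67 and 1.41 TPM in prp39a. The 3 ranges did not overlap; its share was under the limit for testing and was singled out after its values were seen.

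A list of 32 further genes of mRNA decay and of PAP metabolism gave a like picture at the level of totals. All 32 passed the filter, none passed limma's test in smd1b, where 6.63% of all genes did (3 had an unadjusted p under 0.05, as did 23.4% of all genes), and 1 passed in prp39a, lower, where 2.39% of all genes were called lower. That gene was CAF1A, a deadenylase that starts decay by shortening the poly(A) tail and responds to stress. It had 19.9, 41.7 and 36.7 TPM in wild type, 20.2, 15.2 and 15.7 in smd1b and 13.5, 13.8 and 12.7 TPM in prp39a. The prp39a libraries were below the 6 others, and wild-type replicate 1 lay within the smd1b range. The log2 fold change was −1.20 ± 0.24 SE in prp39a (adjusted p = 0.0280) and −0.87 ± 0.24 SE in smd1b (0.0625). The call in prp39a was lost without wild-type replicate 2 (0.0945) or 3 (0.0777), any 1 prp39a library (0.0573 to 0.0856) or smd1b replicate 3 (0.0518), in the fit of 6 libraries (0.0631), with the block (0.0665) and with no filter (0.0548), and that in smd1b was gained without wild-type replicate 1 (0.00522). The median log2 fold change of the list was 0.065 in smd1b and −0.044 in prp39a.

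Between the mutants 4 of the 32 genes were called, all lower in prp39a, against 14.7% of all genes lower there. APK1, an enzyme that makes the sulfate donor from which PAP arises, stood at 63.2 ± 3.16 TPM in wild type, 68.8 ± 2.84 in smd1b and 51.7 ± 3.72 TPM in prp39a (−0.41 ± 0.071 SE between the mutants, limma adjusted p = 0.00604). The VCS paralog VCR stood at 10.4 ± 0.78, 12.2 ± 0.822 and 9.26 ± 0.796 TPM in the same order (0.0198). The deadenylases PARN and CCR4A also passed (0.0260 and 0.0298). APK1 held in all 16 alternatives; VCR was lost without smd1b replicate 1 (0.0664) or prp39a replicate 2 (0.0563). PARN and CCR4A were each lost without smd1b replicate 1 or 3 or prp39a replicate 1 or 2 (0.0670 to 0.0959), and in the fit of 6 libraries (0.0534 and 0.0579); CCR4A was also lost with size factors (0.0552) and with the block (0.0655).

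The isoform mix of these 32 genes was tested for 26 isoforms of 12 genes, of which 0 passed in smd1b, against 2.17% of all isoforms (9 had an unadjusted p under 0.05, as did 18.1% of all). In prp39a 3 of the 26 passed, near the 10.6% of all isoforms, from LSM1B and LSM3A, a subunit of the same ring (its call was lost in 10 alternatives, up to 0.127). Between the mutants 6 passed, against 13.5% of all isoforms, from these genes and RNMT1, a cap methyltransferase. Of these, RNMT1 ID44 (0.0232) was lost without smd1b replicate 2 or 3, without prp39a replicate 1 or 2 and in the fit of 6 libraries (0.0519 to 0.0785). LSM1B, a subunit of the LSM1-7 ring that PAT1 binds, had the larger change and was singled out after its values were seen. Its isoform P1 made up 31.1%, 31.2% and 27.0% in wild type, 32.1%, 22.5% and 27.2% in smd1b and 5.61%, 1.55% and 7.72% in prp39a. The prp39a libraries were far below the others, and smd1b overlapped wild type. The log-ratio fell by 2.53 ± 0.34 SE against wild type and by 2.36 ± 0.34 SE against smd1b (limma adjusted p = 0.00217 and 0.00298), and both calls held in all 16 alternatives. The total of LSM1B was 18.6 ± 0.102 TPM for wild type, 16.2 ± 1.16 for prp39a, and did not pass (adjusted p = 0.126).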

How the data were processed

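The authors deposited 1 table of TPM per transcript isoform; per the file headers the quantifier was kallisto, whose version and transcript set were not given in the sources used here. The submitters' processing notes also list TAIR10, DESeq2, featureCounts, TopHat2 and Trimmomatic, without saying which made what. Of 15 value columns, 9 matched samples by name (those starting with col, smdb1 or prp39), and the other 6 were not used. No 2 libraries held identical values. Estimates for similar isoforms divide shared reads and are uncertain.

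Isoform TPM were summed per locus. Genes averaging 1 TPM or more (20585) and isoforms with a mean share of 0.05 to 0.95 in such genes (21990) were tested in all 9 libraries with limma 3.58.1 (R 4.3.3; lmFit, eBayes with trend), two-sided, with Benjamini-Hochberg adjustment within each comparison over all features and a threshold of 0.05. The pseudocount of 0.5 understates changes of low values. In simulated data a log2 change of 1 was recovered for 89% of genes and 12% of isoforms in prp39a against wild type, and of 2 for 98% and 63%. In smd1b against wild type these were 82% and 8%, and 98% and 61%. Of the features called in simulated data for prp39a against smd1b, 6.6% of genes and 7.69% of isoforms were false, above the 5% aimed at. The false share was 2.7% to 4.17% for the comparisons with wild type. Every comparison was simulated in the same way from the same spread, so these values differ between comparisons only by the random draw. Each draw shifted 200 features, fewer than were called in the data, and treated isoforms of 1 gene as independent. Recovery and false shares in the data may therefore differ.

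The members, lists and tests were chosen with earlier results of these data known. All 10 members were named, with their isoforms that passed or had a mean share of at least 10%, other decay genes that passed, and for each member the gene with the most similar pattern. The sequences are from RefSeq's TAIR10.1, matched for 10 of 10 members by locus; the deposited table has no coordinates.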

Additional observations from a re-analysis of the deposited data

How the results depend on the processing

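Alternatives were pseudocounts of 0.1 and 1, no filter, size factors, a fit of 6 libraries alone, a prior without trend, a replicate block, and leaving out each library (filters kept from all 9). No gene or isoform call named here turned direction. The member isoforms called in smd1b against wild type went from 4 to 2 with a pseudocount of 0.1 or with no filter, to 0 in the fit of 6 libraries or with the replicate block, and to between 0 and 2 when 1 library was left out. In prp39a against wild type they went from 7 to 4 with a pseudocount of 0.1 or in the fit of 6 libraries, and to between 3 and 6 when 1 library was left out; between the mutants, from 3 to between 2 and 4. The member genes called between the mutants went from 2 to 1 with size factors, in the fit of 6 libraries or with the replicate block, and to between 0 and 3 when 1 library was left out; they stayed at 0 against wild type in all alternatives.

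Over all features, leaving out 1 library gave 377 to 1407 genes in smd1b against wild type (1365 with all), 218 to 840 in prp39a against wild type (850) and 2070 to 4434 between the mutants (4336), and 104 to 409 isoforms (478), 1422 to 2293 (2332) and 1878 to 2702 (2978). The fit of 6 libraries gave 106 isoforms in smd1b and 413 genes in prp39a. The replicate block gave 832 genes and 154 isoforms in smd1b and 343 genes in prp39a. Deviations from the group means correlated at −0.401 to 0.287 between same-numbered libraries of different genotypes, and at −0.443 to 0.466 between differently numbered ones. Deviations from a mean of 3 are not independent, so these correlations cannot show whether the replicate numbers paired the samples. The causes of these moves were not tested. Depth is unknown, so no counting error can be given.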

Other observations

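For each member, the gene with the most similar course of log2(TPM + 0.5) over the 9 libraries was looked up among 20575 other genes; the best Pearson r ranged from 0.94 (DCP1) to 0.993 (XRN2). These are the highest of many values over 9 libraries that share 3 genotypes, so they describe the libraries only. For XRN2 it was ABCB21, an ABC transporter gene, with means of 25.2 TPM in wild type, 28.9 in smd1b and 15.3 in prp39a. For VCS it was PRT6 (r = 0.992), a ubiquitin ligase gene of the N-degron pathway, with means of 20.02, 22.0 and 17.9 TPM. The others were AT4G38350 for XRN3 (r = 0.988), LACS4 for XRN4 (0.973), RGLG3 for DCP1, AT3G06330 for DCP2 (0.976), AT1G50380 for DCP5 (0.991), LEJ2 for FRY1 (0.977), AT4G35750 for DXO1 (0.977) and AMT2 for PAT1 (0.983).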
